A study of Mus musculus with 62 samples.

Results

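The comparison described here is the difference between 2 mouse strains in how the lung transcriptome changed after an inhaled allergen. It is the change in BALB/cJ mice (Treated minus Control) minus the change in C57BL/6J mice (Treated minus Control), taken for each transcript cluster. A positive value means that a level moved further up, or less far down, in BALB/cJ. All 48 mice of the series entered it, on 62 arrays, since 7 mice had 3 arrays each, which were averaged. The groups were 14 BALB/cJ Treated, 11 BALB/cJ Control, 12 C57BL/6J Treated and 11 C57BL/6J Control mice, as the sample titles give them.

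All mice were male, and all of them, controls included, were sensitised intraperitoneally with 10 µg of Der p 1, a protease allergen of house dust mite, on days 1 and 8. On day 15 the Treated mice received 50 µg of Der p 1 and the Control mice PBS, and lungs were taken 72 h later. A Control mouse is therefore a sensitised mouse without allergen challenge, not a naive mouse, and neither strain has a group that was not sensitised. RNA came from the right lower lobe, a mixture of many cell types, so that fewer cells of a type and less RNA per cell cannot be told apart. Levels are log2 values, so a difference of 1 is a doubling. The series title places the study in the question of how strains differ in airway hyper-responsiveness and inflammation after house dust mite.

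An allergic response in the mouse lung is driven by T helper 2 cells, whose interleukins 4, 5 and 13 act on epithelium, macrophages and eosinophils. Interleukin 13 turns airway epithelium to mucus production, interleukin 4 and 13 turn macrophages to the alternatively activated state, and interleukin 5 sustains eosinophils. BALB/c mice are widely used as a strain that leans towards T helper 2 responses and C57BL/6 mice as one that leans towards T helper 1 responses, which is the textbook background of a comparison between them.

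Before the results, 2 mice need naming. Clca1, a protein secreted by mucous cells of the airway, was at 6.43 in mouse634, labelled BALB/cJ Treated, against 10.09 to 12.58 in the other BALB/cJ Treated mice. It was at 12.59 in mouse633, labelled BALB/cJ Control, against 5.12 to 7.74 in the other BALB/cJ Control mice. Both libraries go against their labels for this gene, so values are for all 48 mice unless the 46 that remain without them are named, and the value in the 46 is added where the call, the direction or the size moved. Clca1 was also above 10 in 4 of the 11 C57BL/6J Control mice. Mouse numbers begin with 5 or 6 (20 and 28 mice), each series holds all 4 groups, and the series was a covariate of the fit. The mean over 5 lung markers (Sftpc, Sftpb, Scgb1a1, Ager and Pecam1) lay between 11.74 and 12.47 in every mouse. Nothing in the labels says that mice came from separate litters or cages, so p-values measure the spread between these mice.

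Across all 16715 clusters, 6 differed between the strains in their challenge response at an adjusted p under 0.05 (limma, Benjamini-Hochberg over all clusters), 0.0359% of those tested. Upk1b and Azgp1 were higher in the contrast, and Ly6i, Fbp1, Fcrl5 and the cluster 6860119, which carries several gene symbols, were lower. At an unadjusted p under 0.05 there were 907 higher and 1985 lower clusters. The same fit without mouse633 and mouse634 gave 7 clusters (0.0419%), of which 4 were among the 6. Without the covariate 2 passed (0.012%), Fbp1 and Fcrl5. The 95% interval of the difference lay within 1 log2 unit of 0 for 16049 clusters, so for these a difference of more than a doubling lies outside the interval. For the other 666 clusters the interval reached further.

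**Figure D1:**
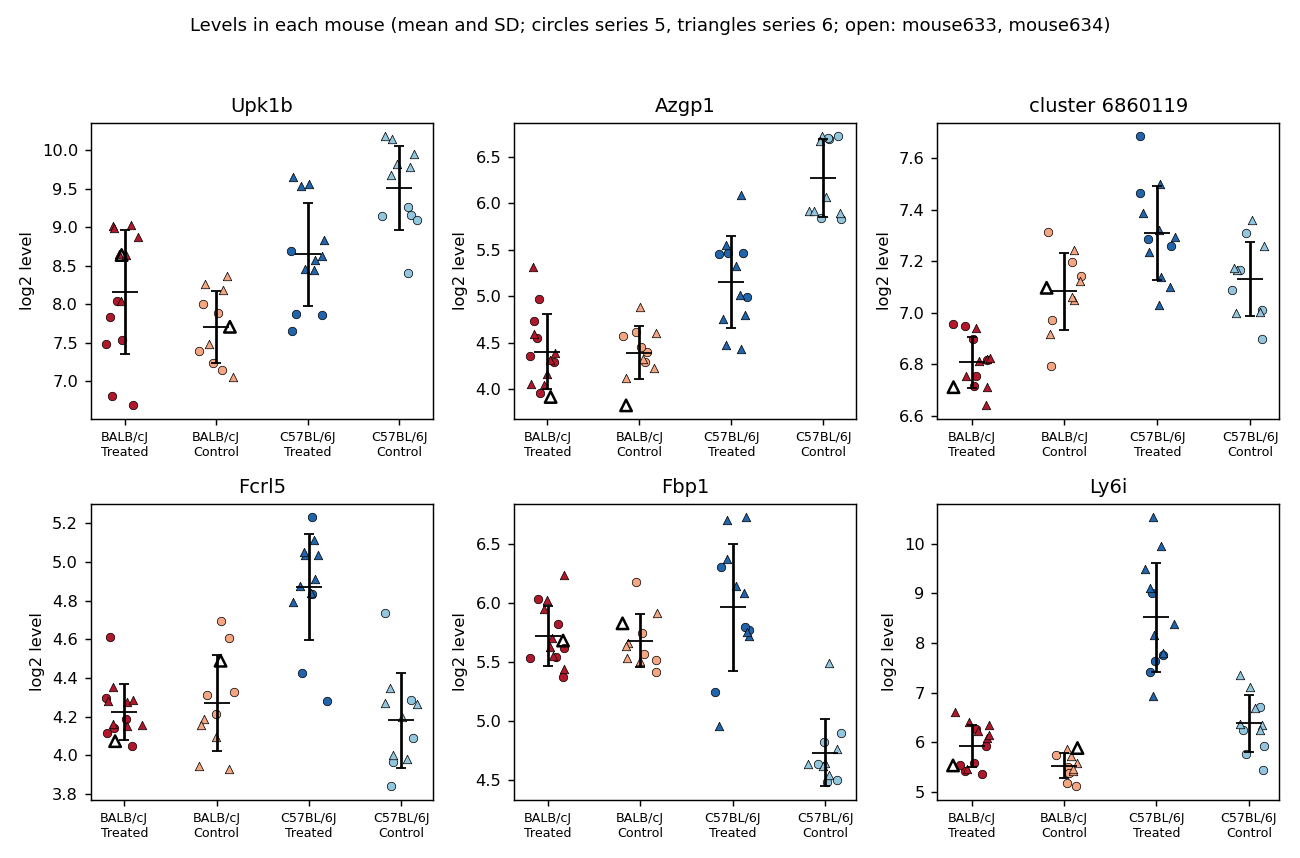
Log2 level in each mouse for the 6 clusters that passed, with the mean and SD of each group. Circles are series 5, triangles series 6, and open symbols are mouse633 and mouse634. In the 5 panels other than that of cluster 6860119 the C57BL/6J groups stand apart from each other more than the BALB/cJ groups do.

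Fbp1, fructose-1,6-bisphosphatase 1, an enzyme of gluconeogenesis, had the smallest adjusted p. Its level ran from 5.37 to 6.24 (median 5.65) in BALB/cJ Treated mice and from 5.41 to 6.18 (median 5.64) in BALB/cJ Control mice. In C57BL/6J it ran from 4.95 to 6.73 (median 5.94) in Treated and from 4.48 to 5.49 (median 4.64) in Control mice. The BALB/cJ groups overlapped almost fully, while 10 of 12 C57BL/6J Treated mice were above every C57BL/6J Control mouse. The change was 0.04 ± 0.14 (SE) in BALB/cJ, adjusted p = 0.930, and 1.22 ± 0.14 in C57BL/6J, adjusted p = 3.37e-07. Their difference was -1.18 (95% interval -1.57 to -0.79, adjusted p = 0.00342, limma), a 2.26-fold lower response in BALB/cJ, and -1.16 without mouse633 and mouse634. It was -1.14 in series 5 and -1.18 in series 6. The strains differed in controls, where BALB/cJ stood 0.95 above C57BL/6J (adjusted p = 2.59e-06). After challenge BALB/cJ stood 0.23 below it on the log2 scale, which did not pass (strain difference -0.23, adjusted p = 0.179).

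Ly6i, a member of the Ly6 family of lipid-anchored surface proteins, had the largest difference in size among the 6. It ran from 5.36 to 6.61 (median 6.00) in BALB/cJ Treated and from 5.12 to 5.89 (median 5.50) in BALB/cJ Control mice. C57BL/6J Treated mice ran from 6.94 to 10.53 (median 8.28) and C57BL/6J Control mice from 5.44 to 7.36 (median 6.34). All but 1 of the 12 C57BL/6J Treated mice lay above the highest control of their strain. The BALB/cJ change was 0.38 ± 0.23 (SE, adjusted p = 0.477), against 2.07 ± 0.24 in C57BL/6J, a 4.19-fold rise with adjusted p = 3.37e-07. The difference was -1.69 (95% interval -2.37 to -1.01, adjusted p = 0.0288), and -1.63 without mouse633 and mouse634, where it missed the threshold (adjusted p = 0.0515). It was -1.64 in series 5 and -1.66 in series 6, and leaving out 1 mouse raised the adjusted p to at most 0.0654 (mouse536). Genes of the Ly6 family are close copies of each other, so probes may not separate them fully.

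Fcrl5, an Fc receptor-like protein on the surface of B-lineage cells, was dim in all groups. It ran from 4.05 to 4.61 (median 4.17) in BALB/cJ Treated and 3.93 to 4.70 (median 4.21) in BALB/cJ Control mice. In C57BL/6J Treated mice it ran from 4.28 to 5.23 (median 4.89), and in C57BL/6J Control mice from 3.84 to 4.74. Both control groups and the BALB/cJ Treated group overlapped widely, and 10 of 12 C57BL/6J Treated mice stood above all controls of their strain. The difference in response was -0.74 (95% interval -1.01 to -0.46, adjusted p = 0.0109), with changes of -0.04 in BALB/cJ (adjusted p = 0.882) and 0.69 in C57BL/6J (adjusted p = 1.46e-05). It was -0.71 in series 5 and -0.70 in series 6, and -0.70 in the 46 mice (adjusted p = 0.0267). Across 16 alternative settings it ran from -0.78 to -0.51 and passed in 12. With the arrays quantile normalised again it did not pass. Its SD between arrays of 1 mouse was 0.23, as large as its residual SD between mice, 0.23.

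Upk1b, uroplakin 1b, a tetraspanin of the urothelium that mesothelial cells also make, moved the other way. Its levels were 6.68 to 9.03 (median 8.33) in BALB/cJ Treated and 7.05 to 8.36 (median 7.70) in BALB/cJ Control mice. They were 7.65 to 9.65 (median 8.59) in C57BL/6J Treated and 8.40 to 10.18 (median 9.67) in C57BL/6J Control mice. The groups overlapped in both strains. It had a change of 0.43 ± 0.18 (SE) in BALB/cJ that did not pass (adjusted p = 0.193), and fell in C57BL/6J (change -0.97 ± 0.18, adjusted p = 0.000244). The difference was 1.41 (95% interval 0.89 to 1.92, adjusted p = 0.0109), and 1.36 without mouse633 and mouse634 (adjusted p = 0.0215). It was 0.85 in series 5 and 1.85 in series 6. The BALB/cJ change was -0.13 in series 5 and 0.89 in series 6, and the C57BL/6J change -0.99 and -0.96. Across all clusters no difference between the series passed, with 734 at an unadjusted p under 0.05. Upk1b was 1 of these (limma, unadjusted p = 0.0478, adjusted p = 0.9998). Without the covariate the difference was 1.32, with an adjusted p of 0.402. Of the other mesothelial genes, Msln, mesothelin, had a difference of 0.03 (95% interval -0.60 to 0.67), which was -0.13 in the 46 mice, and Upk3b one of -0.13 (-0.60 to 0.34), which was -0.26 in the 46. The mesothelial list of 6 genes, Upk1b included, had 4 above 0 and a median of 0.24, which was 0.12 in the 46. Its 2 intervals above 0 were those of Upk1b and Krt19, a keratin.

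Azgp1, zinc-alpha-2-glycoprotein, a secreted protein that mobilises lipid, was low in BALB/cJ with and without challenge. BALB/cJ Treated mice ran from 3.92 to 5.31 (median 4.33) and BALB/cJ Control mice from 3.83 to 4.88 (median 4.40). C57BL/6J Treated mice ran from 4.43 to 6.09 (median 5.17) and C57BL/6J Control mice from 5.83 to 6.72 (median 6.07). Of 12 C57BL/6J Treated mice 11 lay below every C57BL/6J Control mouse, and the BALB/cJ groups overlapped. The BALB/cJ change was 0.02 ± 0.16 (SE, adjusted p = 0.977) and the C57BL/6J change -1.10 ± 0.16 (adjusted p = 2.68e-05). Their difference of 1.11 (95% interval 0.66 to 1.57) had an adjusted p of 0.0288, and in the 46 mice it was 1.10 (adjusted p = 0.0337). It was 1.02 in series 5 and 1.16 in series 6, and without mouse536 the adjusted p was 0.0654.

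The cluster 6860119 was the 1 cluster that passed in both strains with opposite signs, among 404 that passed in both. Levels were 6.64 to 6.95 (median 6.82) in BALB/cJ Treated and 6.79 to 7.31 (median 7.10) in BALB/cJ Control mice. In C57BL/6J they were 7.03 to 7.68 (median 7.29) in Treated and 6.90 to 7.36 (median 7.16) in Control mice. It fell in BALB/cJ (-0.27 ± 0.06, SE, adjusted p = 0.00766), where all 14 Treated mice lay below the control mean, and rose in C57BL/6J (0.18 ± 0.07, adjusted p = 0.0325). The difference was -0.46 (95% interval -0.64 to -0.27, adjusted p = 0.0288), smaller in size than that of the other 5. Repeat arrays of 1 mouse had an SD of 0.26 for this cluster, more than its residual SD between mice of 0.14. The difference was -0.57 in series 5 and -0.39 in series 6, and it missed the threshold without mouse633 and mouse634 (-0.45, adjusted p = 0.055) and without mouse536 (adjusted p = 0.0666).

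Promoter sequences of 3 of the 5 genes with 1 symbol were found in RefSeq (build GRCm38.p6), those of Fbp1, Fcrl5 and Azgp1. The first 2 are shown because these genes passed both with and without the 2 mice and the covariate. Each is the 250 bases before the start, 5′ to 3′ on the gene's strand, at chr13:62888283-62888532 (minus strand) for Fbp1 and chr3:87435532-87435781 (plus strand) for Fcrl5. The motif TTCNNNNGAA, the spacing that STAT6, the factor downstream of interleukins 4 and 13, favours, and TTCNNNGAA, that of other STAT factors, would be in capitals. Both motifs read the same on the 2 strands.
Fbp1: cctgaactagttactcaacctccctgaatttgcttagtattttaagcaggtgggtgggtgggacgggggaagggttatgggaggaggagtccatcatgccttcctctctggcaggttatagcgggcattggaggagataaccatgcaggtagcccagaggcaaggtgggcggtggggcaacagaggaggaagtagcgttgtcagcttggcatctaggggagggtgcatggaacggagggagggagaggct
Fcrl5: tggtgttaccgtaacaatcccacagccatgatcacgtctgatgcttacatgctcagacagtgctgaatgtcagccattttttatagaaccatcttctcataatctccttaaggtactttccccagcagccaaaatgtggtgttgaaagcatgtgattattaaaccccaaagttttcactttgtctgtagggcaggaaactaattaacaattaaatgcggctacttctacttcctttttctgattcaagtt
Neither motif occurs in these windows or in that of Azgp1. Of 32851 windows of this length, 5.85% hold TTCNNNNGAA and 7.02% hold TTCNNNGAA.

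Without mouse633 and mouse634, the clusters that passed besides Fbp1, Upk1b, Fcrl5 and Azgp1 were Pttg1, Trpv4 and the cluster 6933072, which has no symbol. Pttg1, securin, which holds sister chromatids together until anaphase, reached 7.42 (median 6.82) in BALB/cJ Treated and 7.39 (median 6.08) in BALB/cJ Control mice. The 7.39 was the level of mouse633, and the lowest BALB/cJ Treated level, 6.20, was that of mouse634. In C57BL/6J Pttg1 ran from 7.62 to 8.35 (median 7.96) in Treated and 7.66 to 8.78 (median 8.15) in Control mice. C57BL/6J mice were above every BALB/cJ mouse. Its difference was 0.96 (95% interval 0.66 to 1.26, adjusted p = 0.000946) in the 46 mice and 0.80 (adjusted p = 0.0972) in the 48. It rose in BALB/cJ by 0.73 in the 46 mice (adjusted p = 2.55e-06), against a C57BL/6J change of -0.23 (48 mice, adjusted p = 0.156). The 20 measured genes of a proliferation list had a median difference of 0.22 in the 46 mice and 0.03 in the 48, and none passed in the 48.

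Trpv4, a calcium-permeable channel that responds to osmotic and mechanical stimuli, had a difference of 0.56 in the 46 mice (95% interval 0.33 to 0.80, adjusted p = 0.0337) and 0.48 in the 48 (adjusted p = 0.191). Levels with all mice were 6.01 to 6.93 (median 6.59) in BALB/cJ Treated and 5.75 to 6.65 (median 6.09) in BALB/cJ Control mice, against 6.46 to 7.02 (median 6.78) in C57BL/6J Treated and 6.39 to 6.97 (median 6.81) in C57BL/6J Control mice. The C57BL/6J groups overlapped and 13 of 14 BALB/cJ Treated mice lay above their control mean. The cluster 6933072 had a difference of 1.86 in the 46 mice (adjusted p = 0.0211) and 1.69 in the 48 (adjusted p = 0.062). Mouse633 was the highest BALB/cJ Control mouse for Trpv4 (6.65) and for cluster 6933072 (9.37), as for Pttg1. For Pttg1, Trpv4 and cluster 6933072 the larger difference in the 46 mice thus follows from which mice were left out. It is no independent evidence.

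**Figure D2:**
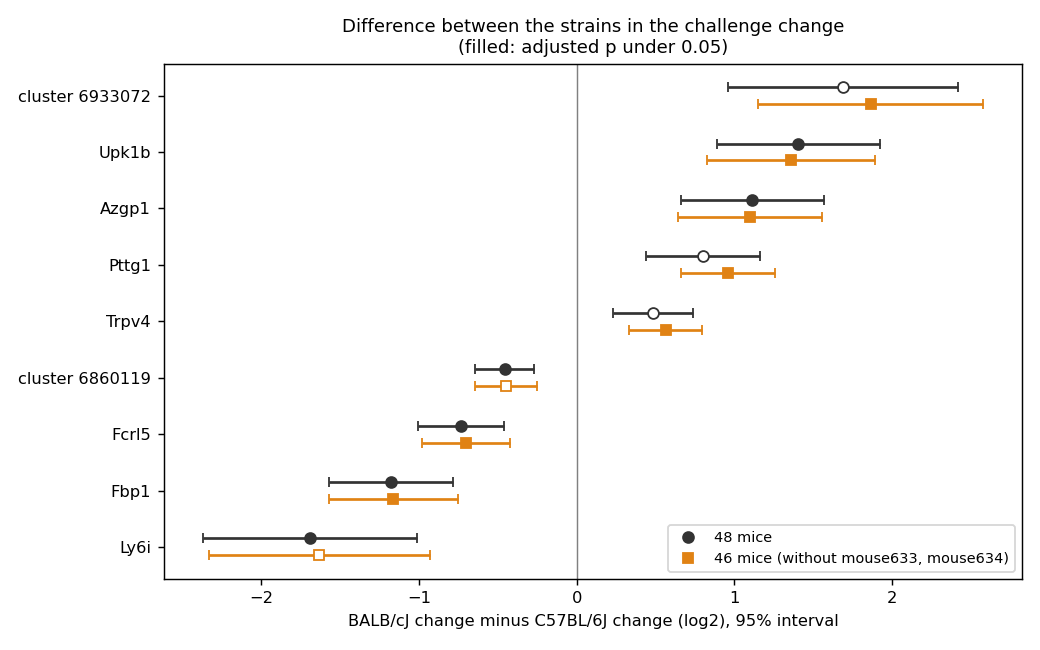
BALB/cJ change minus C57BL/6J change on the log2 scale with its 95% interval, for the 9 clusters that passed in either set of mice. Circles are all 48 mice, squares the 46 without mouse633 and mouse634, and filled symbols passed. The 2 estimates of each cluster lie within each other's intervals.

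The largest challenge responses were shared in direction. In BALB/cJ 436 clusters rose and 102 fell (3.22% of those tested together), and 1247 (7.46%) did so without mouse633 and mouse634. In C57BL/6J 5480 passed (32.8%), 2868 of them higher. Of the 404 clusters that passed in both strains, 403 moved the same way and 1 differed between the strains at the threshold. Passing in both strains itself favours agreement of sign. Of the 5480 clusters called in C57BL/6J, 4443 had the same direction in BALB/cJ, and of all 16715 clusters 10368 did. The counts of the 2 strains are no test of a difference between them. For the 5480 clusters called in C57BL/6J, 6 differed between strains and the interval lay within 1 log2 unit for 93.6%, beside 96% of all clusters. The unadjusted interval excluded 0 for 1883 of the 5480, beside 2892 of all 16715. The C57BL/6J change enters the difference, so being called in C57BL/6J itself favours such intervals.

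**Figure D3:**
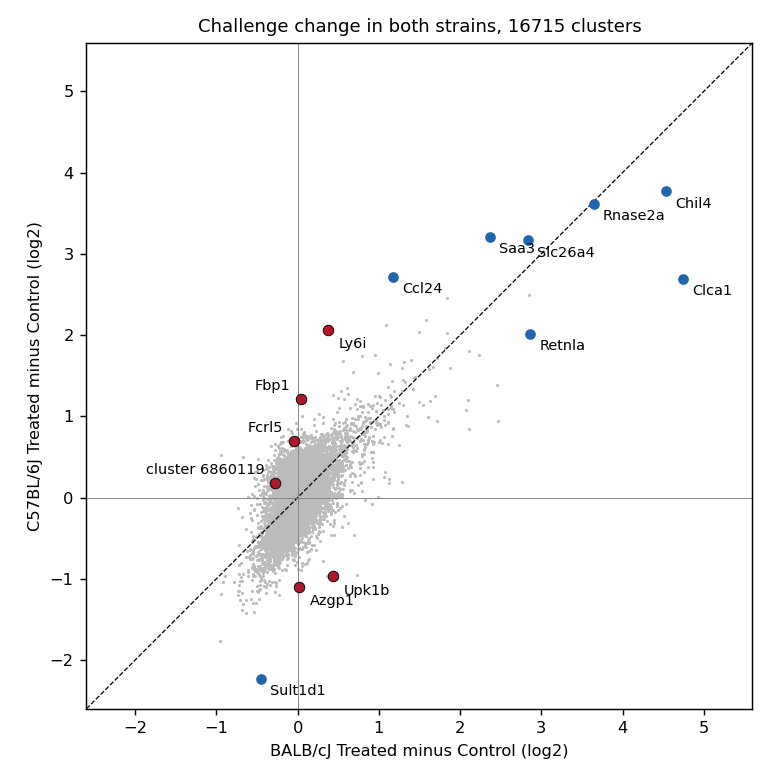
Treated minus Control change in BALB/cJ (x axis) and C57BL/6J (y axis), both log2, for every cluster. Red points are the 6 that differed between the strains, blue points are large responders named in the text, and the dashed line marks equal change. Clca1 lies below the line and Ccl24, Ly6i and Fbp1 above it.

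Clca1 had the largest BALB/cJ rise, 4.75 ± 0.67 (SE, adjusted p = 2.86e-05), against 2.70 ± 0.70 in C57BL/6J (adjusted p = 0.00348). The difference was 2.05 (95% interval 0.11 to 3.99, adjusted p = 0.274), and 3.02 (1.57 to 4.47, adjusted p = 0.122) in the 46 mice. It passed in neither set. Since the 2 mice were named by their Clca1 values, leaving them out raises the BALB/cJ change of Clca1 by construction. The 4 C57BL/6J Control mice above 10 stayed in both fits. Among challenged mice the strains were close (strain difference -0.22, adjusted p = 0.816), and among controls BALB/cJ was 2.27 lower on the log2 scale (-2.27, adjusted p = 0.0387). Chil3, a chitinase-like protein of alternatively activated macrophages, had a difference of 1.00 (0.04 to 1.95, adjusted p = 0.277), with BALB/cJ lower among controls (-1.53, adjusted p = 0.00206) and a strain difference of -0.53 after challenge (adjusted p = 0.198).

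Most of the other large responders had intervals on both sides of 0 in the 48 mice, and their differences moved up without mouse633 and mouse634. Chil4, Retnla, Slc26a4 and Rnase2a also went against the labels in both mice. For these genes the move up follows from which mice were left out and is no independent evidence. Rnase2a, an eosinophil-associated ribonuclease, rose by 3.65 in BALB/cJ and 3.61 in C57BL/6J, with a difference of 0.03 (95% interval -1.66 to 1.73), and of 0.89 (-0.35 to 2.14) in the 46 mice. It was at 4.43 in mouse634, labelled Treated, and at 10.45 in mouse633, labelled Control, where the other BALB/cJ Control mice ran from 3.18 to 4.62. Chil4, another chitinase-like protein, rose by 4.53 in BALB/cJ and 3.77 in C57BL/6J, with a difference of 0.76 (-1.46 to 2.98), and of 1.79 (0.03 to 3.56, adjusted p = 0.324) in the 46.

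The sign turned for Slc26a4, pendrin, an anion exchanger of airway epithelium, with a difference of -0.33 (95% interval -1.65 to 0.99) in the 48 mice and 0.32 (-0.69 to 1.32) in the 46. It also turned for Arg1, arginase 1, which had -0.19 (-1.56 to 1.17) in the 48 and 0.38 (-0.78 to 1.53) in the 46. Ccl8, a chemokine that attracts eosinophils and T helper 2 cells, had 0.35 (-1.14 to 1.83) in the 48 and 1.06 (-0.09 to 2.21) in the 46. Retnla, a secreted resistin-like protein of macrophages and epithelium, had 0.85 (-0.11 to 1.82) in the 48 and 1.30 (0.52 to 2.07, adjusted p = 0.229) in the 46. Bpifb1, a secreted protein of airway epithelium, rose by 2.46 in BALB/cJ (adjusted p = 0.00385), against a change of 0.94 in C57BL/6J (adjusted p = 0.176). Its difference was 1.52 (-0.04 to 3.07), and 2.13 (0.78 to 3.48, adjusted p = 0.229) in the 46 mice. Saa3, an acute-phase protein, had -0.83 (-2.21 to 0.54) in the 48 and -0.36 (-1.62 to 0.90) in the 46, and Mmp12, macrophage elastase, -0.62 (-1.90 to 0.67) in the 48 and -0.14 (-1.28 to 1.01) in the 46. None of these differences passed in either set. In the 48 mice the intervals of Rnase2a, Chil4, Arg1 and Ccl8 hold more than a doubling either way, so equal responses are not shown.

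Ccl24, eotaxin-2, which attracts eosinophils, had one of the larger negative differences among chemokines. It ran from 4.96 to 8.44 (median 6.81) in BALB/cJ Treated and 4.95 to 8.05 (median 5.36) in BALB/cJ Control mice. In C57BL/6J it ran from 5.98 to 10.96 (median 7.83) in Treated and 4.78 to 5.93 (median 5.04) in Control mice, whose groups did not overlap. The difference was -1.54 (95% interval -2.74 to -0.33, adjusted p = 0.234), and -1.22 (-2.40 to -0.05) in the 46 mice. Cxcl10, an interferon-induced attractant of T cells, had one of -1.12 (-1.91 to -0.33, adjusted p = 0.224), and Ccl20, which attracts cells through Ccr6, one of -0.76 (-1.19 to -0.33, adjusted p = 0.216). Cxcl9 had -0.01 (-0.81 to 0.79) and Cxcl11 0.48 (-0.23 to 1.19). The 29 measured chemokines had a median difference of -0.05, the same as all clusters. Of them 10 were above 0 and 19 below, with 0 intervals above 0 and 5 below (17.2%, beside 11.9% of all clusters).

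Of the largest falls in C57BL/6J, Sult1d1, a sulfotransferase, had the largest difference. It ran from 3.45 to 6.97 (median 6.21) in BALB/cJ Treated and 4.86 to 7.21 (median 6.35) in BALB/cJ Control mice. In C57BL/6J it ran from 3.39 to 6.84 (median 5.28) in Treated and 5.09 to 8.66 (median 7.88) in Control mice. It had a change of -0.45 in BALB/cJ (adjusted p = 0.641) and fell in C57BL/6J (-2.23, adjusted p = 0.000125), and the difference of 1.78 did not pass (95% interval 0.69 to 2.87, adjusted p = 0.216). In the 46 mice it was 1.71. Chrm2, a muscarinic acetylcholine receptor, had a difference of 0.88 (0.14 to 1.61, adjusted p = 0.245), Dcn, decorin, one of 0.69 (-0.09 to 1.48), and Abca8a, a lipid transporter, one of 0.76 (0.17 to 1.34, adjusted p = 0.231). Pon1, paraoxonase 1, and Pln, phospholamban, had intervals that held 0.

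Of the 6 largest BALB/cJ falls in the 48 mice, 5 were larger in C57BL/6J. Igfbp3, a binding protein of insulin-like growth factors, fell in BALB/cJ (-0.92, adjusted p = 0.0474) and in C57BL/6J (-1.03, adjusted p = 0.00571), with a difference of 0.11 (95% interval -0.68 to 0.90), which was -0.14 in the 46 mice. Bex2 had a difference of 0.08 (-0.65 to 0.80), which was -0.04 in the 46. Nrn1 had one of 0.26 (-0.38 to 0.90), which was 0.16 in the 46, and Gprc6a one of 0.41 (-0.19 to 1.01). Ptgfr, the receptor of prostaglandin F2 alpha, had one of 0.47 (-0.06 to 1.00). Hspa1a, an inducible heat shock protein, was the exception, with a change of -0.73 in BALB/cJ and -0.13 in C57BL/6J, and a difference of -0.60 with an interval from -1.19 to just below 0 (adjusted p = 0.287).

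Near the threshold, 12 genes in each direction had the smallest unadjusted p. Among those higher in the contrast were Anxa8, an annexin (difference 1.15, adjusted p = 0.165), Cbr3, a carbonyl reductase (0.91, adjusted p = 0.168), and Aldh3a1, an aldehyde dehydrogenase (0.97, adjusted p = 0.186). Itga9, an integrin subunit, Ada, adenosine deaminase, and B3gnt3, a glycosyltransferase, had differences of 0.45, 0.56 and 0.57. Among those lower were Tll1, a metalloprotease (-0.53, adjusted p = 0.0808), Acap1 (-0.61, adjusted p = 0.191), and Pou2af1, a coactivator of B cells (-0.72, adjusted p = 0.191). Nxph4, neurexophilin 4, had -0.75 and Stk32c, a kinase, -0.51.

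The spread of values over clusters and the level of a cluster moved with this contrast, and their part in it was not tested beyond what follows. The SD over clusters averaged 1.95 in BALB/cJ Treated, 1.94 in BALB/cJ Control, 1.86 in C57BL/6J Treated and 1.96 in C57BL/6J Control mice, with a low of 1.44 in mouse532, labelled C57BL/6J Treated. In the dimmest 4179 clusters the median difference was -0.23, with 26 clusters higher and 850 lower at an unadjusted p under 0.05. In the brightest 4179 it was 0.13, with 443 higher and 62 lower. The median change in the dimmest set was -0.04 in BALB/cJ and 0.19 in C57BL/6J, and in the brightest -0.04 and -0.16. Without mouse532 the medians were -0.15 and 0.10. When the arrays were quantile normalised again, which gives each array the same spread, they were -0.02 and 0.01. With array SD as covariate they were 0.02 and -0.01, and 1 cluster passed, Fbp1 (-1.10, adjusted p = 0.0398).

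**Figure D4:**
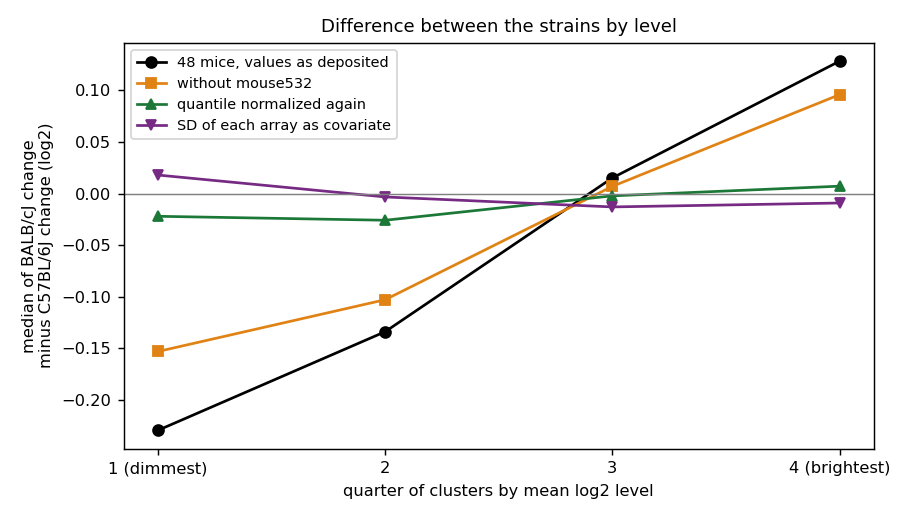
Median of the BALB/cJ minus C57BL/6J change (log2) in 4 bins of the clusters by mean level, for the fit with values as deposited and 3 others. The slope from dim to bright clusters in the deposited values is nearly flat after the arrays are quantile normalised again or their SD is a covariate.

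The gene lists, 38 sets of known genes with 441 of 541 genes measured, had 1 member past the threshold, Upk1b in the mesothelial list. Over all clusters the 95% interval lay above 0 for 5.43% and below 0 for 11.9%, and the median difference was -0.05, which is the background for the counts that follow. Of all clusters 7147 had a difference above 0 and 9568 one below. This background moved with level, with a median of 0.13 in the brightest 4179 clusters and -0.23 in the dimmest 4179. At an unadjusted p under 0.05 (limma) 443 of the brightest were higher and 62 lower, against 26 and 850 of the dimmest. The median member stood at level percentile 94 in the xenobiotic list, 99.25 in the club cell list and 36.9 in the eosinophil list. In the 46 mice 739 of all clusters had an interval above 0 and 1813 one below. These counts use unadjusted intervals and are descriptions. For members that rose or fell, the background also differed between the strains. Over all clusters 2.61% rose and 0.61% fell in BALB/cJ, against 17.2% and 15.6% in C57BL/6J. Counts of members called in each strain are therefore no test of a difference between the strains.

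**Figure D5:**
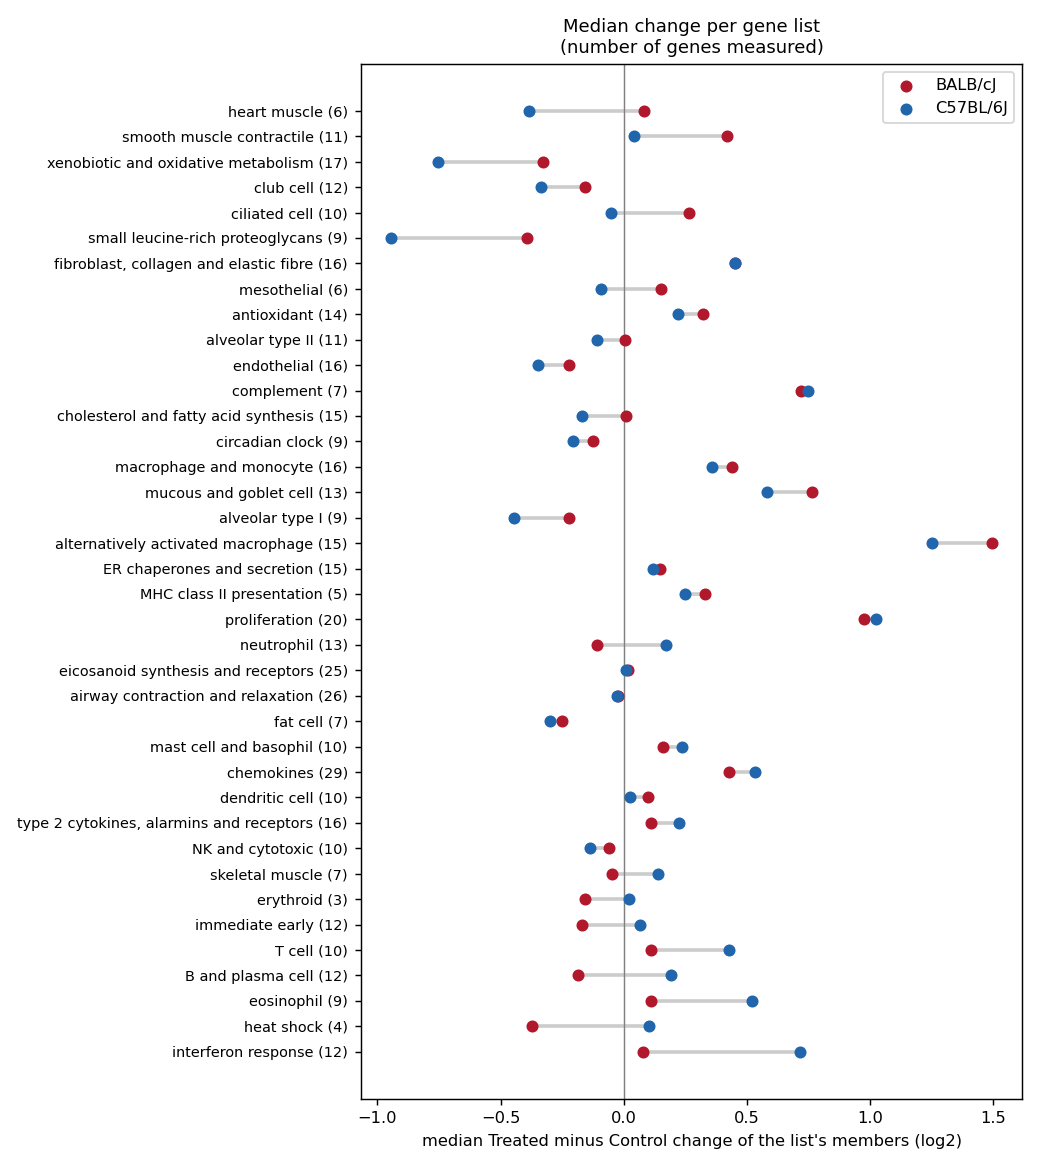
Median Treated minus Control change (log2) of the measured members of each list in BALB/cJ (red) and C57BL/6J (blue), ordered by the median difference between strains, with the number of genes measured. Interferon response genes lie at the bottom, with a median of 0.08 in BALB/cJ and 0.72 in C57BL/6J, and smooth muscle and heart muscle genes at the top.

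The interferon response list, genes that interferons induce in most cells, had the most negative median difference, -0.58. Of its 12 measured genes 10 were below 0 and 7 had an interval below 0. None passed in BALB/cJ (median change 0.08) and 8 rose in C57BL/6J (median change 0.72), beside 2.61% and 17.2% of all clusters that rose. Mx2, an antiviral GTPase, had a difference of -0.81 (95% interval -1.39 to -0.23, adjusted p = 0.224), and Irf7, a transcription factor of the interferon response, one of -0.70 (-1.25 to -0.14, adjusted p = 0.239). Oasl2, an antiviral protein of the oligoadenylate synthetase family, had one of -0.68 (-1.10 to -0.25, adjusted p = 0.216). The median was -0.50 with the arrays normalised again and -0.56 with their SD as a covariate. The mean level of the 12 genes ran from 5.79 to 6.93 (median 6.22) in BALB/cJ Treated and 5.92 to 6.40 (median 6.16) in BALB/cJ Control mice. It ran from 6.34 to 8.87 (median 6.75) in C57BL/6J Treated and 5.99 to 6.72 (median 6.34) in C57BL/6J Control mice. The 2 highest, 8.87 and 7.94, were mouse646 and mouse649, which were also highest for Ly6i at 10.53 and 9.94, and without them the list's median difference was -0.31.

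The eosinophil list had a median difference of -0.46, with 8 of 9 genes below 0 and 4 intervals below 0, and in the 46 mice 1 interval was below 0. Prg2, a granule protein, had -0.78 (95% interval -1.51 to -0.06), and -0.60 (-1.32 to 0.11) in the 46. Ccr3, the eotaxin receptor, had -0.96 (-2.24 to 0.33), and -0.57 in the 46. The list's median was -0.31 without mouse633 and mouse634, -0.23 with the arrays normalised again and -0.24 with their SD as a covariate. Of the 9 genes 2 rose in BALB/cJ and 7 in C57BL/6J, beside 2.61% and 17.2% of all clusters. For B and plasma cells the list's median was -0.39, with 10 of 12 genes and 5 intervals below 0. It was -0.49 with array SD as covariate and -0.34 with the arrays normalised again. Pou2af1, named above, and Cr2, complement receptor 2 of B cells and follicular dendritic cells (-0.65, 95% interval -1.11 to -0.19), led it. The T cell list stood at -0.25 (median), with 9 of 10 genes and 3 intervals below 0 in the 48 mice and 0 intervals in the 46, and at -0.19 with array SD and -0.17 with the arrays normalised again, and Fcrl5 is no member of either list.

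On the other side, smooth muscle contractile genes had a median difference of 0.46, with 11 of 11 genes above 0 and 6 intervals above 0. In BALB/cJ 5 of them rose, and in C57BL/6J none rose and 1 fell. Over all clusters 2.61% rose in BALB/cJ, and in C57BL/6J 17.2% rose and 15.6% fell. Actg2, smooth muscle gamma actin, had a difference of 0.98 (95% interval 0.33 to 1.64, adjusted p = 0.224), Cnn1, calponin, one of 0.91 (0.36 to 1.46, adjusted p = 0.216), and Acta2, smooth muscle alpha actin, one of 0.63 (0.17 to 1.10, adjusted p = 0.226). The list's mean level had a median of 8.37 in BALB/cJ Treated and 7.90 in BALB/cJ Control mice, against 7.78 in C57BL/6J Treated and 8.16 in C57BL/6J Control mice. The list's median difference was 0.30 with the arrays normalised again and 0.31 with their SD as a covariate. Heart muscle genes, which in mouse lung mark the muscle sleeve of pulmonary veins, had a median difference of 0.50 with all 6 above 0, and no interval excluded 0.

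Ciliated cell genes had a median difference of 0.36, with 10 of 10 above 0 and 3 intervals above 0. Dynlrb2, a dynein light chain, had 0.76 (95% interval 0.32 to 1.20), Tekt1, a protein of ciliary microtubules, 0.51, and Foxj1, the regulator of motile cilia, 0.37 (0.03 to 0.71). The median was 0.39 with the arrays normalised again and 0.31 with their SD as a covariate. Genes of xenobiotic and oxidative metabolism had a median of 0.43, with 16 of 17 above 0, and 6 intervals above and 1 below 0. Of these 1 fell in BALB/cJ and 13 in C57BL/6J, beside 0.61% and 15.6% of all clusters. In the 46 mice 6 fell in BALB/cJ, beside 2.81% of all clusters. Gsto1, an omega-class glutathione transferase, had a difference of 1.01 (0.38 to 1.64, adjusted p = 0.216), and rose in BALB/cJ (0.92, adjusted p = 0.00783). The list's median was 0.29 with the arrays normalised again and 0.20 with their SD as a covariate.

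The median differences of the mucous and goblet cell, alternatively activated macrophage and proliferation lists moved with mouse633 and mouse634. These mice were named by Clca1, a member of the first list, so its values in the 46 mice are no independent evidence. The same holds for the second list, which includes Chil4 and Retnla, genes that also went against the labels in both mice. Mucous and goblet cell genes had 0.10 in the 48 mice, with 1 of 13 intervals above 0, and 0.24 in the 46, with 5 above. The median was 0.31 with array SD as covariate and 0.13 with the arrays normalised again, and 9 genes rose in each strain. Alternatively activated macrophage genes had 0.09 in the 48, with 1 of 15 intervals above 0, and 0.30 in the 46, with 5 above. With the arrays normalised again the median was -0.02, and 12 genes rose in BALB/cJ and 15 in C57BL/6J. Proliferation genes had 0.03 in the 48, with 12 of 20 genes above 0, and 0.22 in the 46, with 18 above. Their median was 0.09 with array SD and 0.11 with the arrays normalised again, and 20 rose in BALB/cJ and 18 in C57BL/6J.

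Type 2 cytokines, alarmins and their receptors had a median difference of -0.08 in the 48 mice and -0.07 in the 46, and 0.02 with the arrays normalised again. Il13, interleukin 13, had a difference of -0.28 (95% interval -0.81 to 0.24), and -0.16 in the 46. Airway contraction and relaxation genes had a median of 0.01, with 4 intervals above and 1 below 0, and 0.10 with the arrays normalised again. Chrm3, the muscarinic receptor of airway smooth muscle, had a difference of -0.18 (-0.50 to 0.14). None of these members passed in the 48 mice.

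Weighting arrays by their spread around the fit changed the count more than any other setting. With array weights 2442 clusters passed (14.6%), 794 higher and 1648 lower, and these included the 6. All 2442 had the sign of the unweighted fit, and the median cluster moved by 0.041, so the estimates moved little while the count of passes rose. Of the 1648 lower clusters 87.1% lay below the median level of clusters. The weights ran from 0.119 (mouse532) to 1.85 in C57BL/6J Treated mice and up to 3.48 in BALB/cJ Control mice. Of the 441 list genes 52 passed with weights, beside the 14.6% of all clusters, so the lists as a whole did not exceed that share. They included 6 of 11 smooth muscle genes higher, and 4 of 12 interferon response and 4 of 12 B and plasma cell genes lower.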

How the data were processed

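Values were the log2 values per transcript cluster that the authors deposited, made on Affymetrix Mouse Exon 1.0 ST arrays as core-exon RMA values in Partek Genomics Suite (version not stated), per the labels. They were already normalised, array medians ran from 6.39 to 6.62, and raw intensities were not used here, so probes over strain polymorphisms could not be masked. The median SD between repeat arrays of 1 mouse was 0.157. Arrays of a mouse were averaged, and the 4 group means with the number series (5 or 6) as covariate were fitted with limma 3.58.1 in R 4.3.3, with Benjamini-Hochberg adjustment over 16715 clusters, of which 14959 carried 1 gene symbol. The fit was tested on simulated data. Genes named were all that passed, the 12 of smallest p in each direction, the 8 largest rises and 6 largest falls in each strain, the cluster of opposite signs, and list members (the largest differences and the best-known genes). For a list the brightest cluster of each gene was used. The comparison and the lists were chosen with earlier results of these data known. Alternatives covered the covariate, single mice, number series, normalisation, array weights, array SD, dim clusters, repeat arrays and the prior.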

Additional observations from a re-analysis of the deposited data

Results flagged for a closer look

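Each of the 6 clusters below had a different challenge effect in the 2 strains by the interaction term of the fit (BALB/cJ change minus C57BL/6J change, log2). Upk1b had 1.41, with changes of 0.43 in BALB/cJ and -0.97 in C57BL/6J. Azgp1 had 1.11, with changes of 0.02 and -1.10. Ly6i had -1.69, with changes of 0.38 and 2.07. Fbp1 had -1.18, with changes of 0.04 and 1.22. Fcrl5 had -0.74, with changes of -0.04 and 0.69. Cluster 6860119 had -0.46, with changes of -0.27 and 0.18. In 5 of the 6 the change that passed was in C57BL/6J, and for cluster 6860119 both passed.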

How the results depend on the processing

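No paired analysis was possible because the repeat number in the titles counts arrays of 1 mouse and pairs no mice across groups. The 6 clusters became 2 without the covariate, 3 without mouse633, mouse634 and the covariate, 0 in series 5 alone (704 at an unadjusted p under 0.05, limma), 2 in series 6 alone, 3 with clusters below the median level left out, 2442 with array weights and 1 with the SD of each array as covariate. Leaving out 1 mouse gave 3 (mouse522, mouse524, mouse529, mouse536, mouse649 or mouse661) to 10 (mouse633). Fbp1, Upk1b and Fcrl5 passed in all 48 of these fits, Ly6i in 40, Azgp1 in 36 and cluster 6860119 in 33. With the arrays quantile normalised again 4 clusters passed, and Fcrl5 and cluster 6860119 were not among them. No value that passed changed sign in any setting run. The BALB/cJ count (436 rises and 102 falls) became 323 without the covariate, 1247 without mouse633 and mouse634, 809 without both and the covariate, 133 in series 5, 0 in series 6 (both series alone, limma), 897 with the mouse as random effect, 287 without those dim clusters, 1958 with array weights, 1099 with array SD and 2036 with array SD without both mice; without 1 mouse it was 355 (mouse620) to 928 (mouse633), and 849 without mouse634. The C57BL/6J count of 5480 became 3146 without the covariate, 3163 without it and both mice, 305 in series 5, 3426 without those dim clusters, 1379 with array SD and 1658 with array SD without both mice, and 4229 to 7241 without 1 mouse. The count of intervals within 1 log2 unit, 16049, became 8106 without the dim clusters and 15872 to 16185 without 1 mouse. The 1 list member became 0 without the covariate (with or without both mice), in series 5 and with array SD (with or without both mice), and 52 with array weights. Without 1 mouse it was 1. The cause was not tested. The number of arrays limits the precision, and a strain difference in level assumes that probes bind both strains' transcripts alike, which was not tested. The fits without mouse531 and mouse532, without mouse646 and mouse649, and with array SD but not the 2 mice were chosen after the data were seen.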

Other observations

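Some lists not yet described had values of interest. Small leucine-rich proteoglycans, matrix proteins that bind collagen, had 9 of 9 differences above 0 and a median of 0.28. Their median was -0.02 with array SD as a covariate and 0.35 with the arrays normalised again. In BALB/cJ 1 of these proteoglycans fell and in C57BL/6J 6, beside 0.61% and 15.6% of all clusters. Club cell genes had 10 of 12 above 0 and a median of 0.38, which was 0.26 without mouse633 and mouse634, 0.20 with array SD and 0.23 with the arrays normalised again. Of them 0 fell in BALB/cJ and 7 in C57BL/6J (limma), beside the same 0.61% and 15.6% of all clusters. Scgb1a1, the main club cell secretory protein, had a difference of -0.07 (95% interval -0.30 to 0.17). Heat shock genes had 4 of 4 below 0 and a median of -0.56. The 13 neutrophil genes had a median of 0.03, with 7 above 0 and 6 below, and 0 intervals above 0 and 3 below. Mmp8, a neutrophil collagenase, had a difference of 0.90 (-0.04 to 1.83), and S100a8, a neutrophil calcium-binding protein, had 0.26 (-0.75 to 1.27). Elane and Mpo of the same list went the other way, with -0.38 (-0.68 to -0.08) and -0.37 (-0.66 to -0.08). Krt19, a keratin of the mesothelial list, had 0.71 (0.18 to 1.23, adjusted p = 0.226).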
